A study of Drosophila melanogaster with 6 samples.

Results

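Neuroblasts are the neural stem cells of Drosophila, and the genes described here mark them, divide their contents unevenly between daughter cells, or mark the neurons they produce. The set holds 10 named genes: insc, mira, pros and brat of the asymmetric division machinery, the transcription factor genes ase, wor and grh, and the neuronal genes nerfin-1, elav and futsch. They were found by symbol in the authors' deposited table of 6156 genes called different between tumor and control. Of the 10 genes, 7 had a row (insc, mira, pros, brat, grh, elav and futsch), and 3 were not listed (ase, wor and nerfin-1).

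RNA was sequenced from the salivary gland imaginal ring, a ring of diploid progenitor cells at the base of the larval salivary gland, in 3 control and 3 tumor samples. Control animals had the genotype Actts>GFP and were labelled as larvae of the final instar, while tumor animals had the genotype Actts>GFP+NICD and were labelled as kept 7 days at 18 °C and then 7 days at 29 °C. Both groups carried the actin driver, the GFP transgene and Gal80ts, a temperature-sensitive repressor of Gal4 that timed expression, and they differed in NICD, the active intracellular part of the receptor Notch. The actin driver is broadly active, so NICD was not limited to the ring by the driver itself. For the controls no days or temperatures are labelled, so NICD, age and temperature cannot be told apart, and separate animals per sample are not stated, so the authors' p-values measure a spread that may be technical.

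In the larval brain a neuroblast of most lineages (type I) divides into another neuroblast and a smaller daughter, the ganglion mother cell. That cell divides into neurons or glia. During mitosis an apical protein complex orients the spindle and drives fate determinants to the basal side, where the smaller daughter inherits them. Notch signaling is known to maintain neuroblasts and, when overactive there, to produce supernumerary neuroblasts. Several of these genes also act outside the nervous system: grh in epidermal and tracheal barriers, pros in sensory organ and gut endocrine cells, and brat as a translational repressor in many tissues.

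The authors' comparison gives 1 row per gene with no value per sample, so depth per library is unknown, no SD, SE or n can stand beside a value, and overlap between the groups could not be examined. Levels per group were estimated from the authors' mean log2 CPM (counts per 1000000 reads) and fold change, and rest on the authors' scaling, which is not given. A called gene has an adjusted p below 0.05, and a positive log2 fold change means a higher level in tumor. As a check of the NICD label, N, the Notch gene whose row can also hold transgene reads, stood at a log2 fold change of 7.56 (adjusted p = 1.07e-05) per the authors' deposited table. Markers of the secretory gland were lower in all 9 listed genes of 10, with an estimated sum of 272702 CPM in control against 208 in tumor. Fat body markers were lower in 7 of 7 (193698 and 1616 CPM). Hemocyte markers were higher in 8 listed genes of 9 (33.0 and 1677 CPM), and tracheal markers in 9 of 9 with a matched name (155 and 826 CPM). Beside these counts, 34.0% of all 9384 tested genes were called higher and 31.6% lower. With these sums for secretory gland and fat body markers, the control samples cannot be taken as ring cells alone. The share of ring cells in either group is not known. The part of the secretory gland, fat body, hemocyte and tracheal cells in the results below was not tested. In bulk RNA a change in cell number and a change in RNA per cell cannot be told apart.

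All 7 listed genes were higher in tumor, by 3.95-fold to 9.58-fold. Among the 9384 genes the authors tested, 65.6% were called, 34.0% higher and 31.6% lower, against 7 of the 10 genes here called higher and 0 called lower. Under the authors' second heading, which reads 2, 37.8% were called, 19.7% higher and 18.2% lower, but the rows do not record which genes passed it. The median log2 fold change of the 7 genes in the authors' deposited table was 2.76, beside 0.57 over all listed genes, of which 51.8% were higher; both medians, and those of the lists below, are over called genes alone. Summed over the 7 genes, the estimated level was 52.6 CPM in control, against 303 CPM in tumor. None of the 7 genes had a group fitted at 0.

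**Figure D1:**
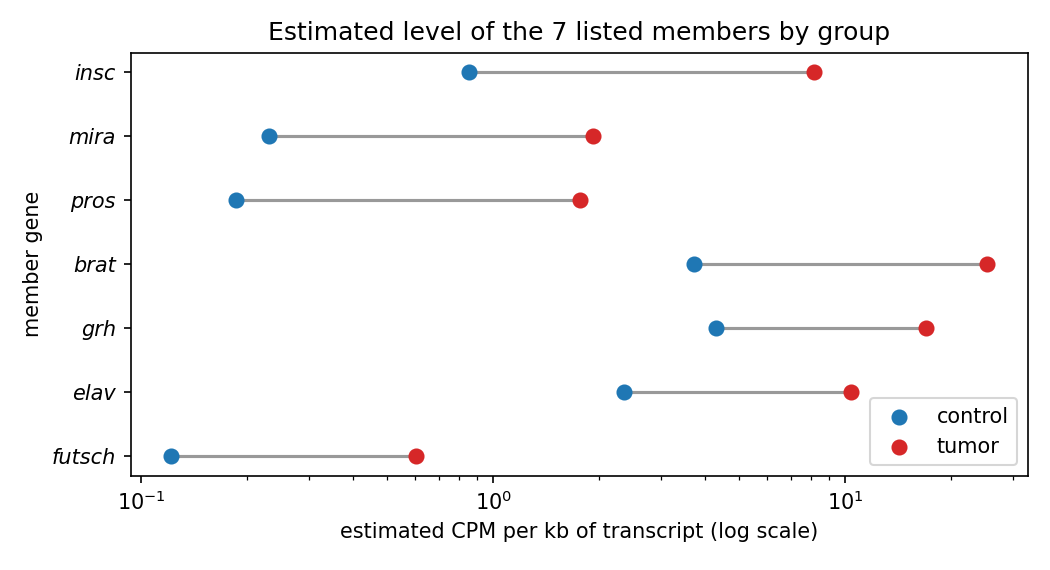
Estimated CPM per kb of transcript (log axis, median annotated transcript length) for the 7 listed genes, with control in blue and tumor in red, joined by a grey line per gene; no error bars are drawn because no value per sample was available. Every red point lies to the right of its blue point, and at this length the tumor levels run from 0.605 CPM per kb (futsch) to 25.3 CPM per kb (brat), although with the longest transcripts grh lies above brat.

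The asymmetric division genes insc, pros and mira had the largest fold changes of the set. insc encodes Inscuteable, the adaptor that links the apical Par complex to the spindle-orienting protein Pins. Its estimated level was 3.32 CPM in control, against 31.8 CPM in tumor, and the authors' deposited table gives 9.58-fold higher (log2 fold change 3.26, adjusted p = 0.000565). It ranked at position 585 of the 6156 listed genes by log2 fold change.

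mira encodes Miranda, the scaffold that carries Prospero, Brat and Staufen to the basal cortex of the dividing neuroblast. Its estimated level was 0.685 CPM in control, against 5.68 CPM in tumor, the lowest CPM of the 7 genes in both groups. The authors' deposited table gives it as 8.28-fold higher (log2 fold change 3.05, adjusted p = 0.0206). pros encodes the homeodomain protein Prospero, a cargo of Miranda that enters the nucleus of the ganglion mother cell, represses stem cell genes and favors differentiation. Its estimated level was 2.79 CPM in control, against 26.6 CPM in tumor, and the authors' deposited table gives 9.52-fold higher (log2 fold change 3.25, adjusted p = 0.0227).

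The adjusted p-values of mira and pros were large for the size of their changes. By adjusted p in the authors' deposited table they ranked at positions 5453 and 5516 of 6156, whereas by log2 fold change they ranked at 674 and 597. Of the 688 listed genes with a log2 fold change of at least 3, only 20 had an adjusted p as large as that of mira or larger, and 18 as large as that of pros, beside a median of 0.000446 among those 688 genes. This comparison was chosen after the values were seen. The spread between samples behind these p-values could not be examined without values per sample.

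**Figure D2:**
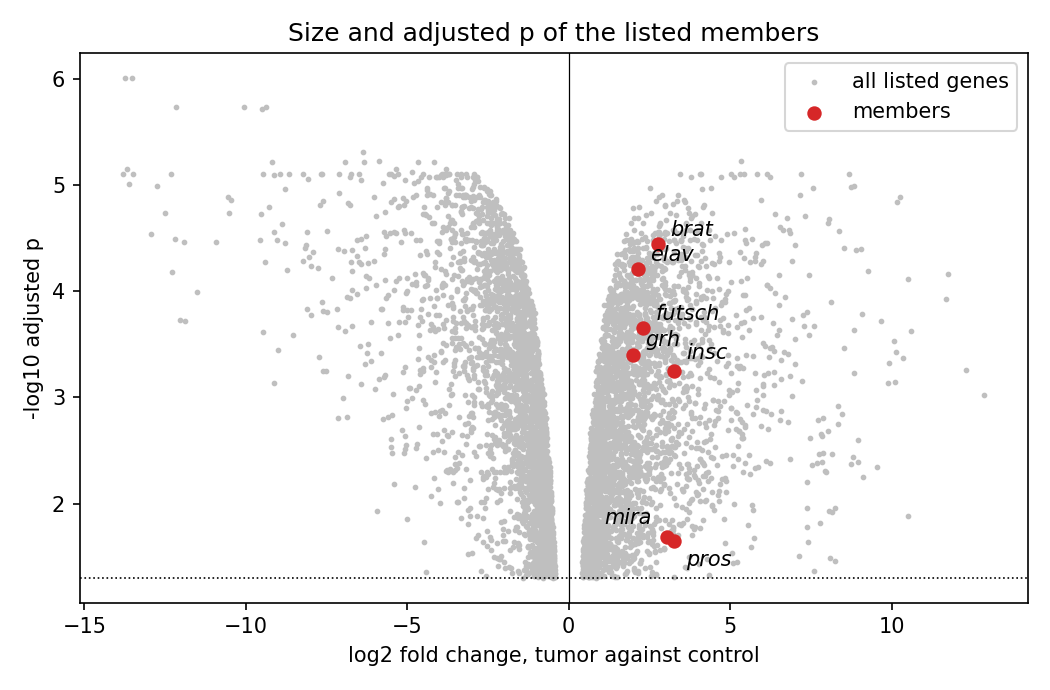
Log2 fold change (horizontal) against −log10 adjusted p (vertical) in the authors' deposited table, with all 6156 listed genes in grey and the 7 genes in red; the dotted line marks an adjusted p of 0.05. mira and pros sit just above the line at 1.69 and 1.64, while brat is highest of the 7 at 4.44.

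brat encodes Brain tumor, an NHL-domain translational repressor inherited with Prospero, whose loss turns progenitor daughters back into neuroblasts. The estimated level of brat was 18.5 CPM in control, against 125 CPM in tumor, the highest tumor CPM of the 7 genes. The authors' deposited table gives it as 6.78-fold higher (log2 fold change 2.76), with the smallest adjusted p of the set (3.59e-05). The genes pros and brat, whose products limit self-renewal in the ganglion mother cell, and mira, whose product delivers them, were all called higher. Of these, mira and pros were not called at an adjusted p below 0.01. The presence of ganglion mother cells in these samples was not tested.

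No listed partner of these genes in asymmetric division was lower in tumor. Of the 21 other genes in that list with a matched name, 14 were called higher (66.7%, beside 34.0% of all tested genes). Of the rest, 0 were called lower (beside 31.6% of all tested genes) and 7 were not listed. The median log2 fold change was 1.91 per the authors' deposited table. The Par complex gene baz, whose protein binds Inscuteable, was 6.53-fold higher (adjusted p = 0.000129) in the authors' deposited table. The basal determinant gene numb, a Notch inhibitor, was 3.93-fold higher and stau, whose RNA-binding protein is carried by Miranda, 3.16-fold higher per the authors' deposited table. mud, which encodes the spindle-anchoring partner of Pins, was 4.46-fold higher, and the mitotic kinase gene polo 4.42-fold higher per the authors' deposited table. Members of the Par and Pins complexes are used by epithelia as well, and polo by all dividing cells. The smallest changes were in the polarity genes l(2)gl (log2 fold change 0.54) and par-6 (0.43), both from the authors' deposited table, both below the median of all listed genes and both named after their values were seen.

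The transcription factor genes of neuroblast identity were divided between listed and unlisted. grh encodes Grainy head, a CP2-family factor of late neuroblasts that is also required for epidermal and tracheal barriers. Its estimated level was 18.8 CPM in control, against 74.2 CPM in tumor, and the authors' deposited table gives 3.95-fold higher (log2 fold change 1.98, adjusted p = 0.000396), the smallest change of the 7. The tracheal markers, genes of an epithelium that also uses grh, had log2 fold changes from 1.96 to 4.10 per the authors' deposited table, with a median of 2.97, and their part in the grh value was not tested.

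ase and wor, the usual markers of neuroblasts in the brain, had no row. ase encodes Asense, a basic helix-loop-helix protein of the achaete-scute complex, present in type I neuroblasts and absent from type II neuroblasts. wor encodes Worniu, a zinc finger protein of the Snail family. The rows used here are all of called genes, so each was left either uncalled or untested, and no level can be given. The 3 other proneural genes of the achaete-scute complex, ac, sc and l(1)sc, which lie 89.8, 63.2 and 49.9 kb from ase in the BDGP6 annotation, were also not listed. wor lies 51.0 kb from sna, which was not listed, and 87.2 kb from esg, both Snail-family genes. esg, a factor of imaginal, tracheal and gut progenitors named after its value was seen, was 8.30-fold higher per the authors' deposited table (adjusted p = 0.00294).

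Of the other neuroblast factors, 50.0% were called higher, beside 34.0% of all tested genes. Of 18 further genes in the list of neuroblast transcription factors and temporal genes, 9 were called higher, 2 lower, and 7 were not listed, and the median log2 fold change was 2.61 per the authors' deposited table. dpn, a Notch-responsive repressor gene of the Hairy family that maintains neuroblasts, was 39.3-fold higher (adjusted p = 4.22e-05) in the authors' deposited table. Its mean was only 3.81 CPM. The genes of early temporal identity chinmo and Imp were 10.5-fold and 6.09-fold higher, and D, a SoxB gene, 4.06-fold higher per the authors' deposited table. The temporal factor genes Kr and svp ran the other way, at 21.8-fold and 3.86-fold lower per the authors' deposited table. Another temporal gene, cas, rose 22.8-fold by the authors' comparison (adjusted p = 0.0115), at a mean of 3.84 CPM. It was named after its value was seen. The temporal genes hb, nub and pdm2 were not listed.

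Of 9 genes of the type II neuroblast lineage, 77.8% were called higher, beside 34.0% of all tested genes. These were 7 genes called higher and 0 lower, while 2, tll and hkb, were not listed. The median log2 fold change was 2.74 per the authors' deposited table, or 2.48 over the 6 genes without erm. pnt, an Ets factor gene of this lineage and of EGF receptor signaling, was 6.69-fold higher, and fru 4.41-fold higher per the authors' deposited table. ham was 7.49-fold and opa, a temporal factor gene of intermediate progenitors, 7.94-fold higher per the authors' deposited table. Sp1 and btd, neighboring zinc finger genes that are also active in leg and antennal primordia, were 4.64-fold and 3.54-fold higher per the authors' deposited table. erm, a gene of intermediate progenitors named after its value was seen, has a control level fitted at 0 in the authors' deposited table (adjusted p = 0.0325, mean 0.586 CPM), so no fold is given. Several of these genes are also used in other tissues.

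About as many proneural and sensory organ genes were unlisted as were listed. Of 16 genes besides ase, 7 were called higher (43.75%, beside 34.0% of all tested genes), 1 lower and 8 were not listed. The median log2 fold change was 2.0003 per the authors' deposited table. sv, a Pax2-family gene of sensory organ support cells, was 16.3-fold higher, and emc, which encodes an inhibitor of proneural proteins, 5.62-fold higher per the authors' deposited table. tap was 20.1-fold higher at a mean of only 1.08 CPM, and neur, a ubiquitin ligase gene of Delta endocytosis, 3.72-fold higher per the authors' deposited table. ct was 2.82-fold higher, whereas sens, a zinc finger gene of sensory precursors that is also expressed in the salivary gland, was 4.65-fold lower per the authors' deposited table.

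The neuronal genes elav and futsch were higher, with small adjusted p-values. elav encodes the RNA-binding protein ELAV, a standard marker of neurons that directs neuron-specific splicing and polyadenylation. Its estimated level was 6.03 CPM in control, against 26.6 CPM in tumor, and the authors' deposited table gives 4.41-fold higher (log2 fold change 2.14, adjusted p = 6.22e-05). elav RNA is known to be made at low levels outside neurons as well. futsch encodes a large microtubule-associated protein of axons, related to mammalian MAP1B. Its estimated level was 2.52 CPM in control, against 12.5 CPM in tumor, and the authors' deposited table gives 4.97-fold higher (log2 fold change 2.31, adjusted p = 0.000224).

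nerfin-1, which encodes a zinc finger protein that keeps young neurons from returning to a stem cell state, was not listed, and neither was its relative nerfin-2. Among the other 12 regulators of neuronal differentiation, 6 were called higher (50.0%, beside 34.0% of all tested genes), 0 lower and 6 were not listed. The median log2 fold change was 2.55 per the authors' deposited table. Rbp9, the ELAV-family relative of elav, was 7.89-fold higher (adjusted p = 8.74e-05) in the authors' deposited table, and fne, the remaining gene of that family, was not listed. zfh1, a factor gene of motor neurons, muscle precursors and blood cells, was 9.55-fold higher, and fd59A, a forkhead gene, 16.7-fold higher at a mean of only 0.535 CPM, in the authors' deposited table. The zinc finger genes jim and mamo were 4.32-fold and 2.65-fold higher per the authors' deposited table.

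Among genes of axon growth and adhesion, 55.0% were called higher, beside 34.0% of all tested genes. Of 20 axon and adhesion genes besides futsch, 11 were called higher, 2 lower and 7 were not listed, and the median log2 fold change was 2.70 per the authors' deposited table. The guidance genes NetB, sli, robo1 and Sema1a were 14.2-fold, 9.93-fold, 7.67-fold and 6.50-fold higher, and the adhesion gene Fas2 7.54-fold higher per the authors' deposited table. These genes also act in trachea, muscle and epithelia. tau and Appl, a cytoskeletal gene and a membrane protein gene of neurons, were not listed.

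Of 27 synaptic and transmission genes, 9 were called higher (33.3%, beside 34.0% of all tested genes), 1 lower and 17 were not listed, and the median log2 fold change was 1.59 per the authors' deposited table. The unlisted genes include several markers of mature neurons: the vesicle protein gene nSyb, the active zone gene brp, the sodium channel gene para, and the transmitter genes ChAT, VGlut, Gad1 and ple. unc-13 (6.11-fold), the potassium channel gene Shaw (7.75-fold) and the calcium channel gene cac (4.89-fold) were higher per the authors' deposited table. The vesicle fusion genes Syx1A (2.89-fold) and Cadps (2.10-fold) were also higher, and Syt1, the calcium sensor of vesicle release, was 5.40-fold lower per the authors' deposited table.

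Of 16 glial markers, 8 were called higher (50.0%, beside 34.0% of all tested genes), 1 lower and 7 were not listed. Their median log2 fold change was 1.005 per the authors' deposited table, or 1.75 at an adjusted p below 0.01. At that threshold 3 of the 16 were higher, beside 2460 of the 9384 tested genes. repo and gcm, which define glia, were not listed. moody, a receptor gene of the blood-brain barrier, was 4.96-fold higher, and Gli, Nrx-IV and drpr, which epithelia or other tissues share, were 2.29-fold, 2.01-fold and 1.93-fold higher per the authors' deposited table. The glutamate transporter gene Eaat1 was 2.53-fold lower per the authors' deposited table. pnt stands in both the glial and the type II lineage list, so these lists are not independent.

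**Figure D3:**
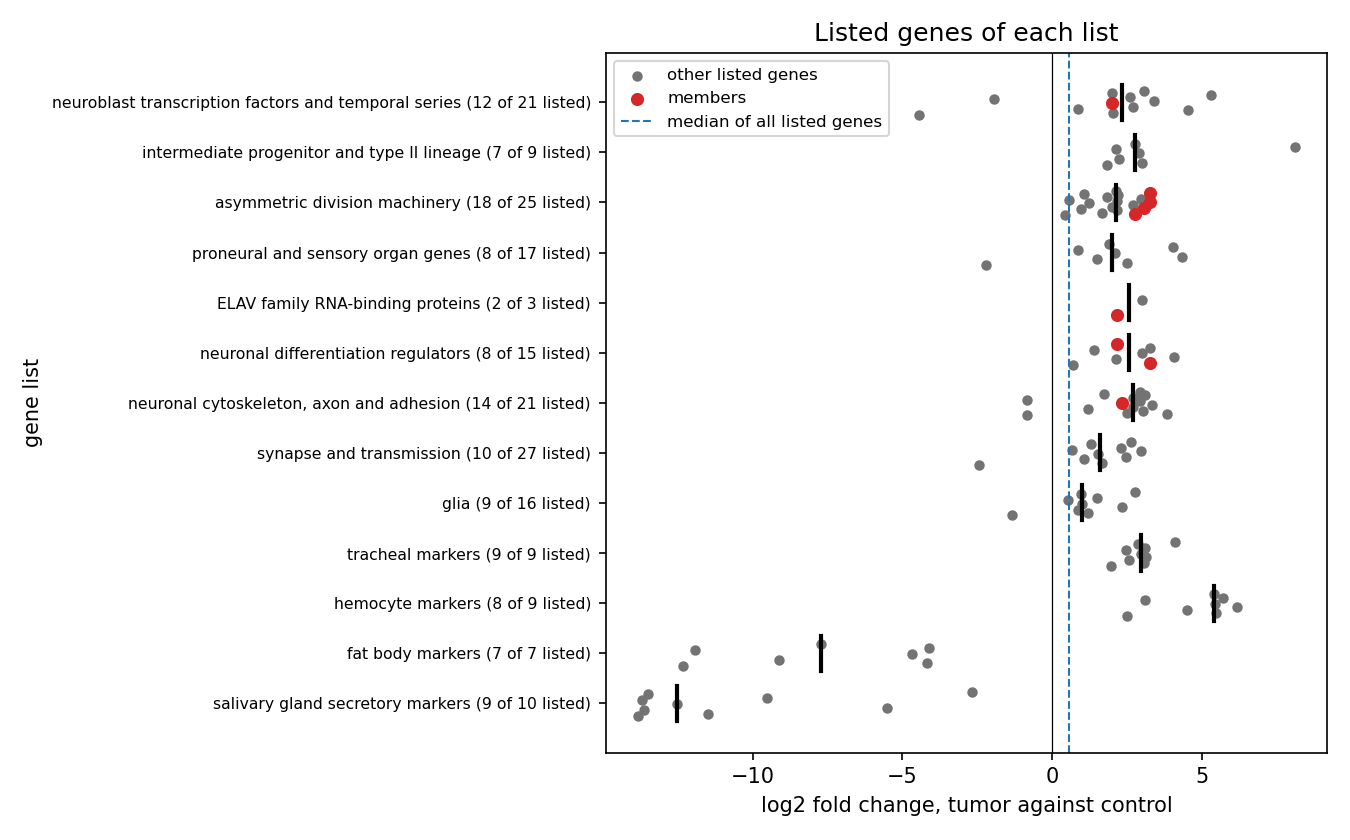
Log2 fold change of each listed gene (points, vertical position within a row is arbitrary) in the neural and marker lists, with the genes of the set in red, the median of each list as a black bar and the median of all listed genes as a dashed blue line at 0.57. The neural lists lie mostly to the right of the line, with medians from 1.005 (glia) to 2.74 (type II lineage), while the median of hemocyte markers is 5.40 and that of salivary gland secretory markers -12.51.

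Over all 9 neural lists, leaving out the 10 genes of the set, 137 further genes had a matched name, of which 70 were called higher (51.1%), 7 lower and 60 were not listed. Their median log2 fold change in the authors' deposited table was 2.11. The share called higher stands beside 34.0% of all tested genes, although genes that were never tested may count among the 137, so the denominators can differ. The 77 listed genes among the 137, of which 70 were higher, had a median transcript length of 3767 bases. In the longest quintile of all listed genes by transcript length, above 3585 bases, 92.3% were higher. The part of length in the list counts was not tested.

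Per kb of transcript, at the median annotated transcript length, the estimated tumor level was highest for brat (25.3 CPM per kb), followed by grh (17.0), elav (10.4), insc (8.18), mira (1.91), pros (1.77) and futsch (0.605). In control the estimated level was highest for grh (4.30 CPM per kb), followed by brat (3.73), elav (2.36), insc (0.854), mira (0.231), pros (0.186) and futsch (0.122). The order was thus the same but for brat and grh, and no spread was available to say which neighbors differ. It also rests on the transcript used, since elav has annotated transcripts of 2248 to 10506 bases and pros of 5526 to 23486 bases. With the longest transcript of each gene, grh was above brat in tumor as well, at 11.1 against 10.4 CPM per kb. Taking the longest elav transcript gives 2.53 CPM per kb in tumor, below insc, and taking the shortest pros transcript gives 4.81 CPM per kb, above mira.

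Transcript length moved with fold change in these data, and the listed genes of the set are long. Across the 6137 listed genes with a known length, the Spearman correlation of log2 fold change with median transcript length was 0.45, across genes that share the same libraries. In the longest quintile, above 3585 bases, 92.3% of listed genes were higher (median log2 fold change 1.60), and it holds insc, grh, brat, pros and futsch. In the next quintile, from 2267 to 3585 bases, 70.4% were higher (median 0.99), and it holds elav and mira. In the shortest quintile 21.7% of listed genes were higher. All 7 genes were above the median of their own quintile, and the part of length in the result was not tested. The unlisted wor, ase and nerfin-1 have annotated transcripts of 2222, 2430 and 3208 bases.

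**Figure D4:**
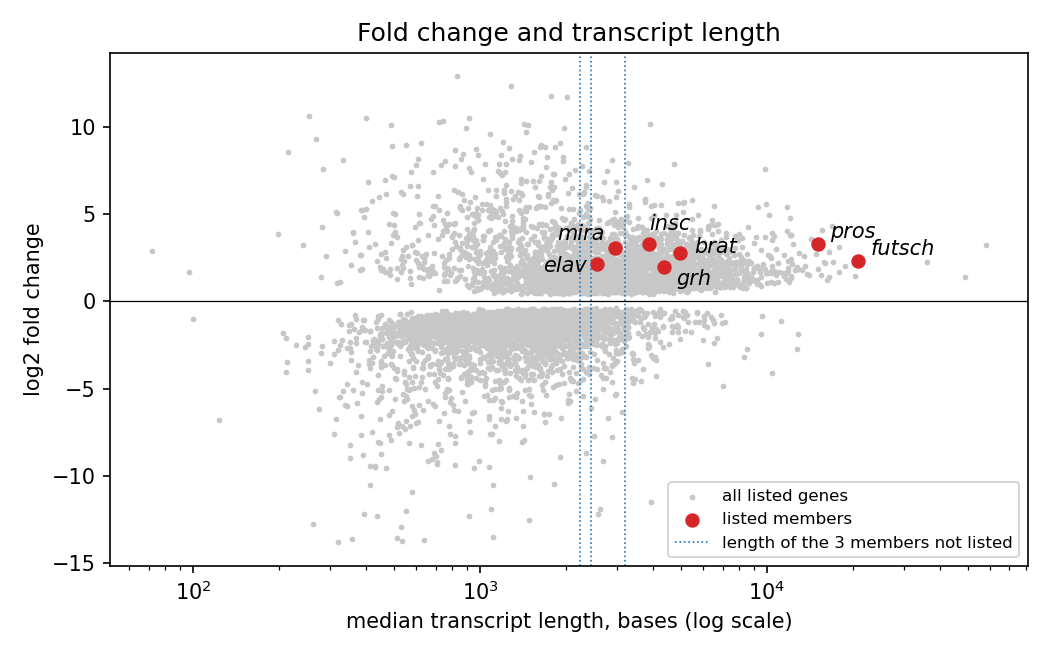
Median annotated transcript length in bases (horizontal, log axis) against log2 fold change in the authors' deposited table, with all listed genes in grey, the 7 genes in red and the lengths of the 3 unlisted genes as dotted lines. The red points lie from 2554 bases (elav) to 20736 bases (futsch), where most grey points are above 0.

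Some of these genes share exonic sequence with neighbors in the BDGP6 annotation, and the strand setting of the counting is not given. elav overlaps arg, on the opposite strand, over 673 exonic bases (6.28% of its exonic length), and arg ran the other way, at 8.07-fold lower per the authors' deposited table. elav also shares 2994 exonic bases (27.9% of its exonic length) on the same strand with the noncoding gene lncRNA:enrr, which was not listed. grh overlaps the antisense gene CR45270 over 520 bases, and that gene was 5.85-fold higher per the authors' deposited table at a mean of 0.874 CPM. insc shares 359 bases with sktl and futsch 1186 bases with Gr2a, on the same strand, and neither neighbor was listed. mira shares no exonic base with another gene.

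The listed nearest neighbors of these genes were divided between higher and lower. Of the 14 nearest non-overlapping protein-coding genes beside the 7 listed genes, 1 on each side, 7 were listed, of which 3 were higher and 4 lower. Among all tested genes 65.6% were called, 34.0% higher and 31.6% lower, so no trait of the neighbors is read from these counts. elav lies between svr and CG4293, which were 1.76-fold and 11.6-fold lower per the authors' deposited table. pros is followed after 290 bases by mRpL40, which was 2.69-fold lower per the authors' deposited table. futsch lies between the higher genes CG11448 (3.46-fold) and CG14785 (4.75-fold) in the authors' deposited table. These neighbors were named after their values were seen.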

How the data were processed

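RNA sequencing of 3 control and 3 tumor samples was compared by the authors. The submitters' processing notes name featureCounts and DESeq2, without versions. Aligner, build, annotation and strand setting: not given in the sources used here. For each gene the authors' deposited table holds its log2 fold change, its mean log2 CPM over all libraries, the p-value and the adjusted p. Per the file headers, these columns are named as in edgeR's glmTreat, so which tool made them is not settled. A second log2 fold change column, unshrunk by the authors, differed by at most 0.0067 among the 7 listed genes. The authors' deposited sheet of calls gives 9384 tested and 6156 called genes under the heading 1.2, read as a minimum fold, which is the number of gene rows.

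No value per sample was used (0 columns), so no test was run here. The adjusted p equals the Benjamini-Hochberg value over 9384 genes within 1% for 98.7% of rows. Control level was estimated as 2 times the mean CPM over 1 plus the fold, and tumor level as that times the fold. These sums reach 1224976 CPM in control and 351471 CPM in tumor, so the scale is not a share of reads. The arithmetic was tested on simulated data. Transcript lengths and neighbors come from the BDGP6 annotation (version 54, Ensembl release 115), matched by gene ID or symbol. The authors' build is not known, hence coordinates are left out. No sequences were used, so the planned promoter and protein descriptions are not reported here.

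The members and the 13 gene lists (185 symbols, of which 4 matched no name) were chosen with earlier results of these data known. Named genes are the 10 members and up to 6 listed genes per list with the smallest adjusted p. N was named as a check of the label, and arg and CR45270 as the listed genes that overlap a member. Any other gene is said to have been named after its value was seen, or is named as not listed. Python 3.11.15, pandas 2.3.3 and numpy 2.4.6 were used.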

Additional observations from a re-analysis of the deposited data

How the results depend on the processing

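A threshold on adjusted p, size or level cannot change the direction of a gene, so it bears only on which genes remain. All 7 listed genes of the set passed a 2-fold minimum. They were also higher by the unshrunk fold change, which is nearly the same column, and with the direction set against the median of all listed genes. At an adjusted p threshold of 0.01 mira and pros were no longer called, which leaves 5. The quartile filter (log2 CPM above 3.06) removes mira and futsch, which also leaves 5. Over all listed genes the quartile filter left 2092 higher and 2525 lower, against 3187 higher and 2969 lower without it. At 0.01 there were 2460 higher and 2422 lower among the 9384 tested genes. With a 2-fold minimum there were 2502 higher (26.7% of all tested genes) and 2209 lower. Under the authors' heading 2, an alternative added after the data were seen, 1845 of all tested genes were higher and 1705 lower. Of the 9 type II lineage genes, the number higher fell from 7 to 4 at 0.01 and 3 under the quartile filter. Of the 27 synaptic genes it fell from 9 to 4 under the quartile filter. Of the 16 glial markers it fell from 8 to 3 at 0.01 and 5 with a 2-fold minimum. The 2 lower axon genes became 1 at 0.01 and 0 with a 2-fold minimum. Set against the median of all listed genes, 2 asymmetric division genes and 2 glial genes were lower, and the medians of the synaptic and glial lists became 1.02 and 0.43. The glial median was 1.75 at 0.01, above the synaptic 1.59. These alternatives test fewer genes or shift the zero by construction. No paired analysis was possible because no column carries a single sample, and for the same reason no replicate could be left out and depth limits could not be set.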
